A study of Mus musculus with 6 samples.

Results

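Osgin1, an oxidative stress-induced growth inhibitor, was followed together with Nfe2l2, which encodes the transcription factor NRF2, and 7 genes of antioxidant enzymes and proteins (Hmox1, Nqo1, Gclm, Gclc, Txnrd1, Prdx1 and Txn1). The 9 genes were matched by current or older symbol to 14 of the 46643 probes on the array, where Osgin1 carries its older symbol 1700012B18Rik, and all of these probes were read on every array. Osgin1 was chosen by its strong rise in intestine in an earlier look at these data, so its own differences are given as a description with no test, and the 8 others were grouped by function, with earlier results of these data known. The samples were cells sorted as CD45+, CD3-, NKp46+ and, as the labels spell it, NK11+, from the spleen, the skin or the gut lamina propria of 12-week-old male RAG-2-KO C57BL/6 mice, which form no T or B cells. The deletion is shared by all groups, and the labels give no separate treatment. NKp46, which triggers killing, is carried by natural killer (NK) cells and some other innate lymphoid cells. Each tissue had 2 arrays (replicates I and II), and because nothing states that replicates came from separate mice, p-values reflect no more than how far these samples differ, and that spread may be technical.

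NRF2 is held at a low level by KEAP1, which hands it to a ubiquitin ligase for destruction. Oxidants and electrophiles modify KEAP1, and NRF2 then pairs with a small MAF protein on antioxidant response elements of genes for glutathione synthesis, the thioredoxin system, quinone reduction and haem and iron handling. OSGIN1 is among the genes known to respond to this pathway, and its product restrains growth and promotes cell death.

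Signals are the deposited bead intensities, background-subtracted and scaled so that every array has a mean of 83.1, and a probe was called detected on an array where its deposited detection p was under 0.01. The share of probes detected ran from 32.6% (a skin array) to 39.7% (a spleen array). Of the 11 genes of the sort and of NK cells, 11 were detected on both arrays in spleen and 10 in intestine and in skin. Gzma, a granzyme gene, was the exception in both, detected on 0 of 2 intestine arrays and 1 of 2 skin arrays. The summed signal of these genes was 22540 and 23360 in spleen, 13190 and 15150 in intestine, against 21450 and 22870 in skin. Ncr1, the gene of NKp46, had 88.2 and 52.9 in spleen, 10.8 and 14.7 in intestine, against 33.1 and 32.4 in skin. Among markers of other cell types, Cdh1 (61.1 and 84.5, undetected in spleen and skin), Cd3g (312 and 597, other arrays 54.6 to 109) and Pecam1 (550 and 728, other arrays 178 to 222) were highest on the intestine arrays. Several other members of their lists did not follow. Epcam, Fabp1, Fabp2, Krt8, Cd3e, Cd4, Cd5, Themis, Cdh5, Tek and Emcn were detected on no intestine array. Cd3d and Lat were highest in spleen and Lgals4 was lowest in intestine, while Cd8a was detected in intestine alone (6.05 and 23.3). The part of all these shifts in the intestine differences was not tested. Differences are of normalised log2(signal + 16), which understates changes near the floor. They are followed by ± the standard error (SE) that limma gave with n = 2 arrays for each tissue and with p-values adjusted over the 13455 genes tested. These are bulk samples, in which fewer cells with a transcript and less of it per cell cannot be told apart.

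Of the 9 genes 6 had a probe detected on both arrays of at least 1 tissue: Osgin1, Nfe2l2, Hmox1, Gclm, Txnrd1 and Prdx1. Gclm, Nfe2l2 and Prdx1 were detected on all 6 arrays. Osgin1 entered through the intestine alone, Hmox1 through spleen and intestine, and Txnrd1 through the spleen alone, so for these the filter itself favours a difference. Nqo1, Gclc and Txn1 had no such probe, and 8 of the 14 probes were left untested.

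Osgin1 was high in the gut cells and not detected in the others. Its signal was 570 and 704.5 on the intestine arrays, against 4.0 and 4.06 on the spleen arrays and 4.84 and 4.95 on the skin arrays. Every intestine array stood far above every other array, while spleen and skin lay at the edge of detection. The deposited detection p was 0.0269 and 0.0171 in spleen and 0.110 and 0.0682 in skin, so at a looser limit of 0.05 the spleen arrays would count as detected and the skin arrays would not. Taken against the lowest detected signal of each array, Osgin1 was at least 32.5-fold higher in intestine than in spleen and at least 28.9-fold higher than in skin. The measured log2 differences were 5.05 ± 0.15 and 5.08 ± 0.15, and within the slides they were 4.87 and 5.23 against spleen and 4.92 and 5.25 against skin. Spleen and skin means (4.37 and 4.33 on the log2 scale) lay at the floor and have no order. Osgin2, the paralog, was detected on none of the 6 arrays, with signals of -8.05 to 3.52.

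**Figure D1:**
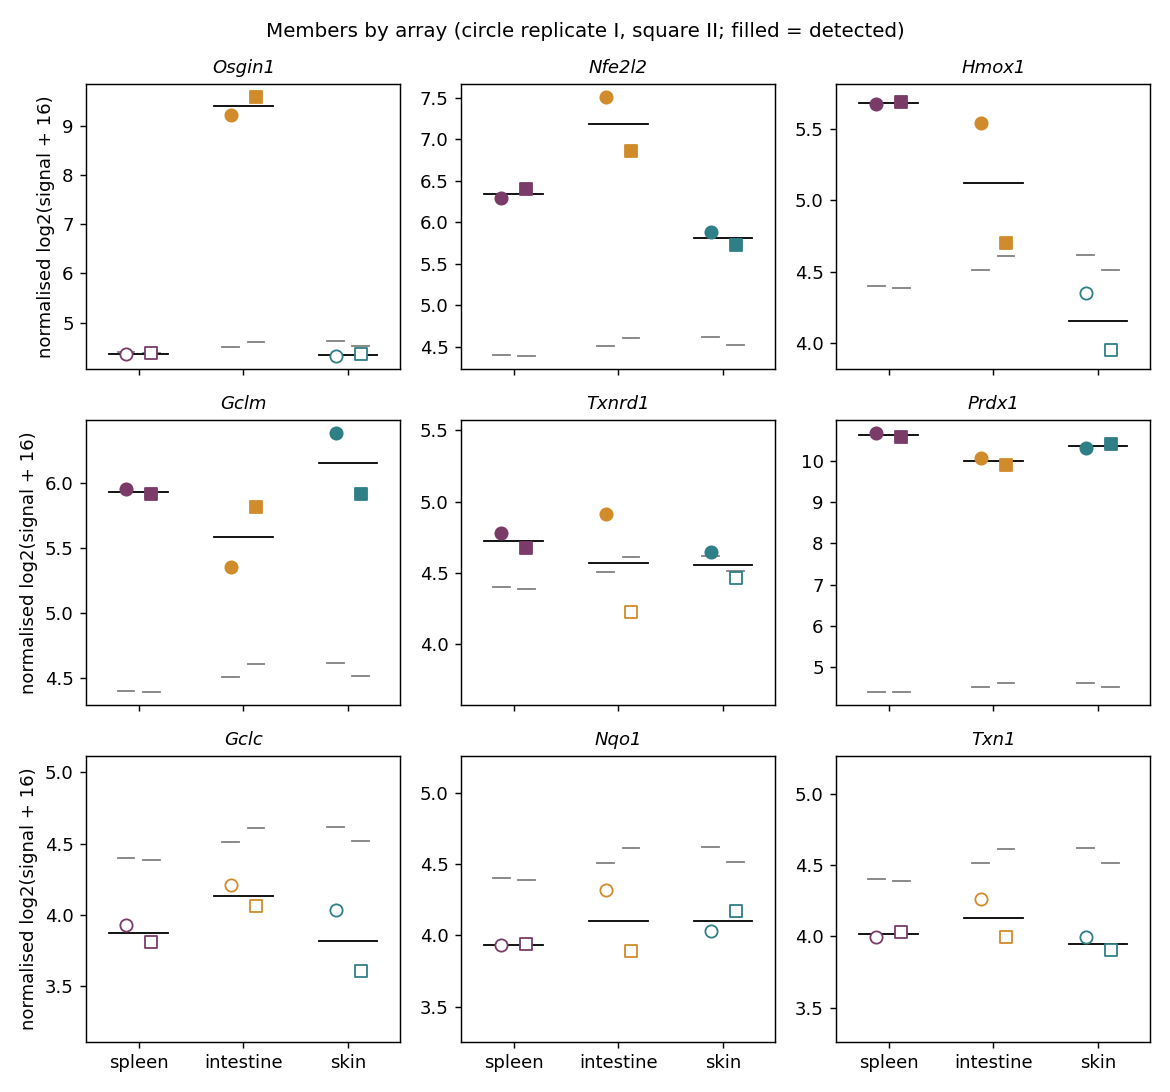
Normalised log2(signal + 16) of the best probe of each of the 9 genes on the 6 arrays, with circles for replicate I, squares for replicate II, filled where the probe was detected, black lines for tissue means and grey ticks for the lowest detected value of that array. Osgin1 is filled only in intestine, Nfe2l2 is highest there, Hmox1 is highest in spleen, and the bottom row (Gclc, Nqo1, Txn1) is open on every array.

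The 5 genes whose profiles over the 6 arrays, each centred on its own mean, lay nearest to that of Osgin1 were Cables1, B3galt5, Crem, Gcnt2 and Dgat1. Their root mean square distances from Osgin1 were 0.211, 0.307, 0.348, 0.364 and 0.413 on the log2 scale. Cables1, which encodes a protein that links kinases of the cell cycle, had signals of 33.5 and 34.9 in spleen, 1444 and 1513 in intestine, against 16.2 and 32.8 in skin. B3galt5, a galactosyltransferase gene, went from 7.6 and 10.1 in spleen and 4.59 and 3.25 in skin to 465 and 466 in intestine. Of the 5 other members tested, Nfe2l2 had the smallest distance, 1.90 (rank 727 of 13454 genes), and Prdx1 the largest, 2.635 (rank 10749). Osgin1 was undetected on 4 of the 6 arrays, so these distances rest mainly on its gap between the intestine and the other arrays.

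**Figure D2:**
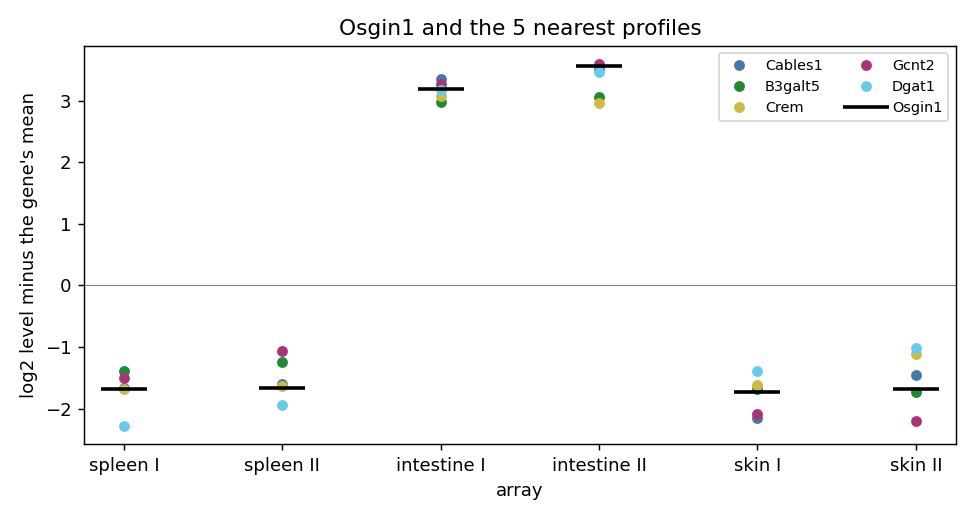
Log2 level of Osgin1 (black bars) and of its 5 nearest genes (coloured points) on each of the 6 arrays, after subtracting the gene's own mean. All 6 genes lie near 3 or above on both intestine arrays and below -1 on the other 4 arrays.

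NRF2 is known to bind the antioxidant response element, of which TGACNNNGC is the core, and AP-1 dimers bind TGACTCA, which can lie inside that core. RefSeq promoters (GRCm38.p6) were found for 7 of the 9 genes, and both motifs were searched on both strands of the 250 bases before the start. Those of Osgin1, which was high in the gut alone, of Nfe2l2, and of Prdx1 and Gclm, which were lowest there, are shown so that they can be compared. Capitals mark either motif. The coordinates are chr8:119436897-119437146 (Osgin1, plus strand), chr2:75704664-75704913 (Nfe2l2, minus strand), chr4:116685349-116685598 (Prdx1, plus strand) and chr3:122245307-122245556 (Gclm, plus strand).
Osgin1: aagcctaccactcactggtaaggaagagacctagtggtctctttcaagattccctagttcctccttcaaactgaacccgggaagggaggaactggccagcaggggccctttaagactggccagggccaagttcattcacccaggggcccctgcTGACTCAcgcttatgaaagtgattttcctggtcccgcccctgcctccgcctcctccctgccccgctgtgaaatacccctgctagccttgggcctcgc
Nfe2l2: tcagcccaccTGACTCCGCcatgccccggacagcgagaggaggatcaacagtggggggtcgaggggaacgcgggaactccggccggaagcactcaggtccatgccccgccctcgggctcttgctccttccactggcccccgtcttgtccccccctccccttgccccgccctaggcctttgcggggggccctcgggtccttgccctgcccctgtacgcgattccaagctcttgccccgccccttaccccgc
Prdx1: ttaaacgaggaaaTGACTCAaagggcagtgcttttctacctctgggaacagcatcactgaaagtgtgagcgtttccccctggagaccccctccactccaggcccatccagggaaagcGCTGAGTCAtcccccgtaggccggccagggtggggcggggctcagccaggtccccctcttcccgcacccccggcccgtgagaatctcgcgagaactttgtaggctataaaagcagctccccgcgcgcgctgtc
Gclm: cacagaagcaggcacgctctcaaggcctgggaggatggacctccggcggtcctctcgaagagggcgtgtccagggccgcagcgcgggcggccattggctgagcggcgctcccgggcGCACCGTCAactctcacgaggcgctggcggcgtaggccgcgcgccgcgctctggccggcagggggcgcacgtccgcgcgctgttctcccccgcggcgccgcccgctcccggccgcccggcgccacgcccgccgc
The window of Osgin1 held no match to TGACNNNGC and 1 to TGACTCA, 97 bases before the start. Nfe2l2 held TGACTCCGC at 240 bases, Gclm TGACGGTGC at 134 bases on the opposite strand, and Prdx1 TGACTCAGC at 133 bases on the opposite strand, which includes TGACTCA, with another TGACTCA at 237 bases. Of all 32851 promoters in the table, 10.2% held TGACNNNGC and 4.46% held TGACTCA in a window of this length. Among the promoters not shown, those of Nqo1 and Txn1 held neither motif, and 1 of 3 listed for Txnrd1 held TGACNNNGC. A match is a run of letters and not a measured binding site.

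Nfe2l2, the gene of NRF2, was highest in the gut cells and lowest in skin. Its signal was 145 and 85.3 in intestine, 77.0 and 82.7 in spleen, and 41.3 and 36.0 in skin. Both intestine arrays lay above both spleen arrays, the lower of them only narrowly, and both skin arrays lay below all others. It rose 1.79-fold from spleen to intestine (0.84 ± 0.20, limma adjusted p = 0.00632) and was 2.6-fold higher in intestine than in skin (1.38 ± 0.20, adjusted p = 0.000427). Skin against spleen gave -0.54 ± 0.20 (adjusted p = 0.0706). It passed as a fall once slide was a block (adjusted p = 0.0436) and with median scaling (0.00777). The deposited scaling alone (0.00985) and the median of the detected probes as the scale (0.0416) gave the same call. The rise over spleen was 1.22 on slide 1 and 0.46 on slide 2, and it did not pass when spleen replicate I was left out (adjusted p = 0.0508), with median scaling (0.124) and with the deposited scaling alone (0.0878). The other Nfe2l2 probe was detected on no array (signals -6.07 to -0.305).

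Neither glutathione synthesis gene was measured as higher in the gut. Gclm, the modifier subunit of glutamate-cysteine ligase, which makes the first bond of glutathione, had signals of 57.1 and 54.3 in spleen, 20.4 and 33.7 in intestine, against 64.5 and 43.7 in skin. The intestine arrays were the lowest, and spleen and skin overlapped. Against spleen the difference was -0.35 ± 0.19 (limma adjusted p = 0.157), which passed as a fall with median scaling (0.00274), with the deposited scaling alone (0.00446) and without intestine replicate II (0.0403). Gclm was lower in intestine than in skin (-0.57 ± 0.19, adjusted p = 0.0412), although within the slides this came to -1.03 and -0.104. It lost that call under 6 of 17 alternatives, among them without intestine replicate I (adjusted p = 0.2145), without skin replicate I (0.273) and without either spleen replicate (0.0711 and 0.0708). Gclc, the catalytic subunit, gave -4.51 to 2.08 and was detected on no array.

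Of the thioredoxin and peroxiredoxin members, Prdx1 fell in the gut and Txnrd1 did not pass. Prdx1, an abundant peroxiredoxin that reduces hydrogen peroxide, had signals of 1666 and 1520 in spleen, 1055 and 869 in intestine, against 1223 and 1348 in skin. The order was spleen, skin, intestine with no overlap between tissues. Prdx1 fell 1.56-fold from spleen to intestine (-0.64 ± 0.14, limma adjusted p = 0.00369), with -0.60 and -0.68 within the slides. Intestine against skin gave -0.37 ± 0.14 (adjusted p = 0.0545) and skin against spleen -0.27 ± 0.14 (adjusted p = 0.173), so neighbours in that order did not pass. Intestine against skin did pass with the deposited scaling alone (adjusted p = 0.0410) and with an offset of 32 (0.0213). It also passed with only probes detected on all 6 arrays (0.0369) and with the mean of kept probes (0.0473). The fall from spleen to intestine did not pass without spleen replicate I (adjusted p = 0.0512) or with the median of the detected probes as the scale (0.0550). Txnrd1, the selenoprotein that recharges thioredoxin, was dim. Its spleen signals were 11.9 and 8.95, its intestine signals 11.2 and 3.13, and its skin signals 10.5 and 6.84, and it was detected on 1 of 2 intestine arrays and 1 of 2 skin arrays. Its log2 differences lay between -0.17 and 0.02 with an SE of 0.205 and did not pass (lowest adjusted p = 0.547), although intestine against spleen passed without intestine replicate I (-0.50, adjusted p = 0.0246). The 4 probes of Txn1, thioredoxin itself, gave -4.48 to 2.63 and were detected on no array.

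Hmox1 and Nqo1 are widely used readouts of NRF2, and Hmox1 was highest in spleen while Nqo1 was not detected. Hmox1, the inducible haem oxygenase, had signals of 43.9 and 43.4 in spleen, 25.1 and 10.3 in intestine, against 5.38 and -0.705 in skin, where it was detected on neither array. The tissues did not overlap, in the order spleen, intestine, skin. In skin Hmox1 was lower than in spleen by at least 2.16-fold (-1.53 ± 0.24, limma adjusted p = 0.00367) and in intestine it was at least 1.47-fold higher than in skin (0.97 ± 0.24, adjusted p = 0.0102, or 0.0837 without skin replicate II). Intestine against spleen gave -0.56 ± 0.24 (adjusted p = 0.0819), or -0.132 and -0.984 within the slides, and passed once slide was a block (adjusted p = 0.0284), with median scaling (0.00472), with the deposited scaling alone (0.00472) and without intestine replicate I (0.00302). Nqo1, a quinone reductase, gave -3.49 to 3.25 over its 2 probes and was detected on no array.

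Some macrophage genes were, like Hmox1, highest in spleen. Splenic red pulp macrophages take up old red cells and carry high HMOX1 and ferroportin. The summed signal of 16 macrophage and monocyte genes was 250 and 288 in spleen, 78.7 and 79.4 in intestine, against 84.5 and 106 in skin. In spleen 8 of the 16 were detected on both arrays, among them Vcam1 (74.1 and 81.0) and C1qb (19.1 and 21.1), against 1, Cd68, in intestine and in skin. Cd68 was at a like level throughout (57.9 to 93.7), and between intestine and skin the sum was lower in intestine, where Hmox1 was higher. Csf1r, Cd14, Cd163, Spic, Fcgr1, Marco, Vsig4 and Timd4 were detected on no spleen array. Erythroid genes, 8 in all, summed to 11760 and 17670 in spleen, 1464 and 906 in intestine, against 1147 and 900.5 in skin. Hbb-b1 and Hba-a1 made up most of these sums, Epb42 and Klf1 were detected on no array, and Tfrc, the transferrin receptor, was highest in intestine (351 and 213, against 60.4 and 59.9 in spleen). Slc40a1, which encodes the iron exporter ferroportin, had signals of 116 and 115 in spleen and lay below 0 on the 4 other arrays. It entered the test through the spleen alone, so the filter favours a difference. It was at least 4.76-fold lower in intestine (-2.91 ± 0.14, limma adjusted p = 4.30e-07) and at least 4.74-fold lower in skin (-3.08 ± 0.14, adjusted p = 9.55e-06). The part of macrophages and of red cell RNA in the Hmox1 and Slc40a1 differences was not tested.

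**Figure D3:**
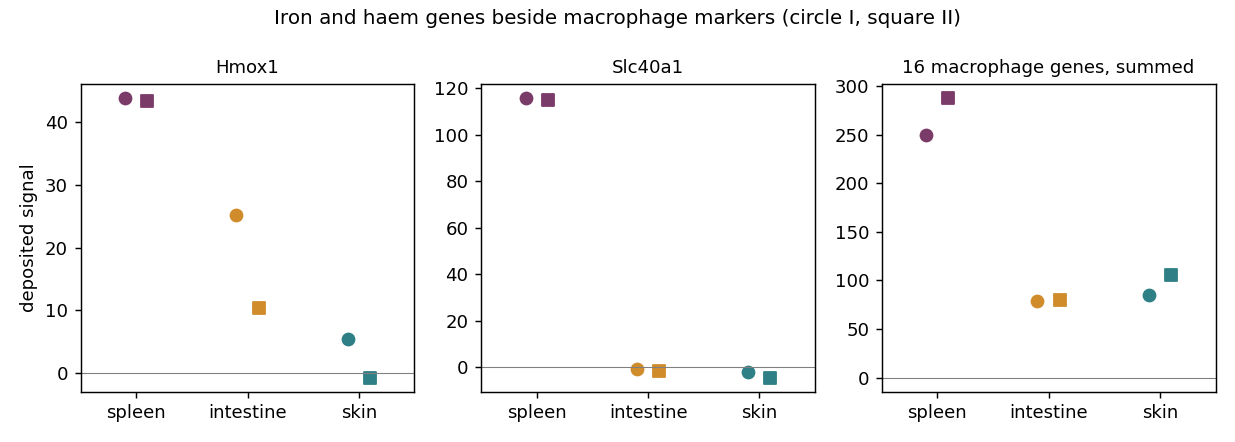
Deposited signal of Hmox1, of Slc40a1 and of 16 macrophage and monocyte genes summed (values under 0 counted as 0), by tissue, with circles for replicate I and squares for replicate II. All 3 are highest on the spleen arrays, and Hmox1 differs from the other 2 in an intermediate level in intestine.

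In counts, 5 of the 8 members other than Osgin1 could be tested. From spleen to intestine 1 rose (Nfe2l2), 1 fell (Prdx1) and 3 did not pass (with slide as a block, 3 members were called, Hmox1 being added), where 21.0% of all genes tested were higher in intestine and 28.3% lower. From spleen to skin 0 rose, 1 fell (Hmox1) and 4 did not pass (with the slide as a block, 2 members were called), against 13.1% of all genes higher in skin and 11.4% lower. Between intestine and skin 2 were higher in intestine (Nfe2l2 and Hmox1), 1 was lower (Gclm) and 2 did not pass, against 16.4% higher and 22.9% lower of all genes. With so few members these counts are near what all genes gave. The comparisons share arrays and are not independent.

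**Figure D4:**
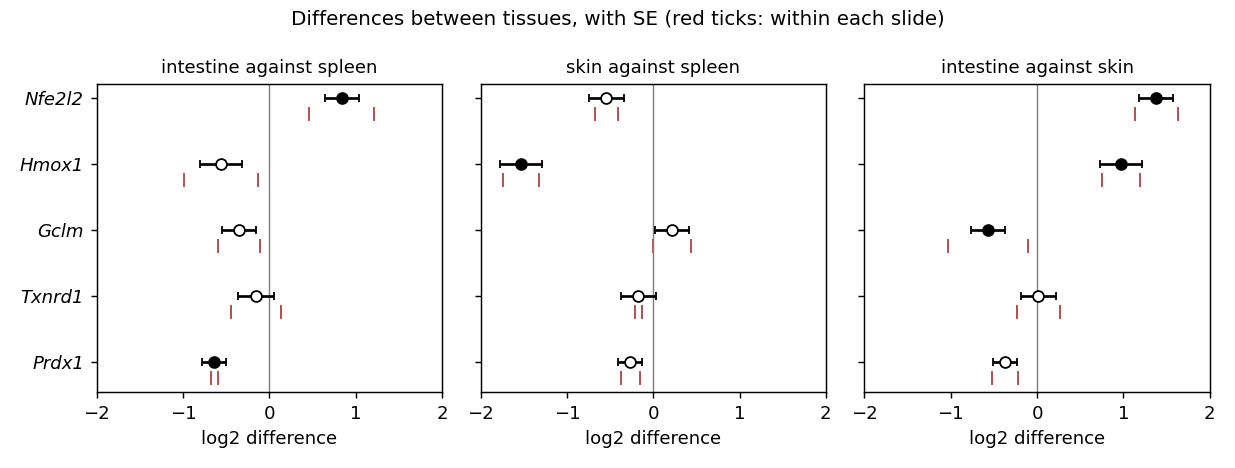
Log2 differences between tissues of the 5 members tested, with the SE of the limma fit, filled where the adjusted p was under 0.05, and with red ticks for the differences within slide 1 and within slide 2. Nfe2l2 lies to the right in both comparisons that hold the intestine first, and Hmox1 lies far to the left in skin against spleen.

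Other genes around NRF2 and of redox defence were taken from 6 lists with 93 genes, of which 75 were tested. From spleen to intestine 19 rose, 21 fell and 35 did not pass, shares of 25.3% and 28.0% that are close to those of all genes (21.0% and 28.3%). The balance depended on scaling, with 14 higher and 29 lower under median scaling, 16 and 28 under the deposited scaling alone, and 20 and 15 with the median of the detected probes. Those scalings moved the median difference of all genes from -0.042 to -0.28, -0.25 and 0.11, and the share of all calls that were higher from 42.5% to 23.6%, 25.7% and 58.5%. The called differences named below kept their sign under these scalings, except that this was not computed for Mafg.

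The regulators of NRF2 split. From spleen to intestine 3 of 9 rose, 3 fell and 3 did not pass (median 0.12, against -0.042 for all genes), where 21.0% of all genes rose and 28.3% fell. Maff, a small MAF partner that lacks a transactivation domain, had signals of 21.6 and 20.7 in spleen, 670 and 412.5 in intestine, against 34.4 and 54.0 in skin. It rose 16.8-fold from spleen (4.07 ± 0.205, limma adjusted p = 5.63e-07) and was 9.44-fold higher than in skin (3.24 ± 0.205). Sqstm1, which encodes p62, an autophagy adaptor that captures KEAP1, had 649 and 755.5 in spleen, 5850 and 4083 in intestine, against 848 and 831 in skin, and rose 6.86-fold (2.78 ± 0.17, adjusted p = 1.68e-06). Mafg was the third that rose (1.35). Rbx1, a subunit of the ubiquitin ligase used by KEAP1, fell 2.66-fold (-1.41 ± 0.16, adjusted p = 7.35e-05), and its other probe gave -1.82. Keap1 itself did not pass in intestine against spleen (0.16, adjusted p = 0.338), and its 2 other probes gave 0.45 and 0.59.

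Among glutathione genes 4 of 24 rose from spleen to intestine, 8 fell and 12 did not pass (median -0.15), where 21.0% of all genes rose and 28.3% fell. Gsto1, a glutathione transferase, rose 2.85-fold (1.51 ± 0.17, limma adjusted p = 8.77e-05), Gstm5 2.72-fold (1.44 ± 0.17) and Slc3a2, the heavy chain of the cystine transporter, 2.47-fold (1.303 ± 0.26, adjusted p = 0.00231). Slc3a2 lay near the floor in spleen (signals 6.07 and 5.29) and had 50.05 and 20.3 in intestine. Slc7a11, the other chain of that transporter, did not pass (0.36, adjusted p = 0.0766). Gpx4, which repairs lipid peroxides, rose 1.45-fold (0.53 ± 0.13, adjusted p = 0.00723), a call lost without spleen replicate I (0.0885). The differences of the 8 that fell ran from -0.93 to -0.41. Among them Gstp1, another transferase, had signals of 1105 and 1168 in spleen and 750.5 and 741 in intestine (-0.475 ± 0.13, adjusted p = 0.0133), and did not pass without either spleen replicate (0.0680 and 0.1215) or with the median of the detected probes (0.145). Genes of the transferase families have close relatives whose transcripts can reach each other's probes, so Gstm5 and Gstp1 are uncertain.

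Thioredoxin and peroxide genes diverged by family member. From spleen to intestine 5 of 15 rose, 3 fell and 7 did not pass (median 0.076), where 21.0% of all genes rose and 28.3% fell. Prdx6, a peroxiredoxin that acts on phospholipid peroxides, had signals of 108 and 182 in spleen, 568 and 708 in intestine, against 176 and 228 in skin, and rose 5.13-fold (2.36 ± 0.23, limma adjusted p = 2.78e-05, other probes 1.01 and 2.44). Prdx4, the peroxiredoxin of the endoplasmic reticulum, had 97.9 and 103 in spleen, 13.8 and 17.4 in intestine, against 200 and 207 in skin. It fell 2.86-fold from spleen to intestine (-1.52 ± 0.13, adjusted p = 1.27e-05) and rose 2.26-fold from spleen to skin (1.18 ± 0.13, adjusted p = 0.000639). Between intestine and skin Prdx4 differed by -2.69 ± 0.13. Sod1, the cytosolic superoxide dismutase, was 2.33-fold higher in intestine than in skin (1.22 ± 0.13, adjusted p = 5.93e-05), with signals of 1368 and 1283 against 554 and 536 in skin and 672 and 695 in spleen.

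Ferritin rose in the gut. Of the haem, iron and quinone genes 4 of 10 rose from spleen to intestine, 3 fell, Slc40a1 among them, and 3 did not pass (median 0.32). Of all genes 21.0% rose and 28.3% fell, and with 10 genes the list's counts are not far from that. Fth1, the ferritin heavy chain, had signals of 967 and 973 in spleen, 2564 and 1894 in intestine, against 1121 and 1038 in skin, and rose 2.34-fold (1.23 ± 0.15, limma adjusted p = 0.000148). Ftl1, the light chain, rose 1.93-fold (0.95 ± 0.14, adjusted p = 0.000368). Both were also higher in intestine than in skin (0.97 ± 0.15 and 0.59 ± 0.14), and ferritin genes have many processed copies that may share probes.

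NADPH supply had called genes in both directions. From spleen to intestine 2 of 12 rose, 2 fell and 8 did not pass (median 0.05), where 21.0% of all genes rose and 28.3% fell. From spleen to skin 6 rose, 1 fell and 5 did not pass (median 0.40, against 0.004 for all genes). There 13.1% of all genes were higher and 11.4% lower. Of those 6, Me2 and Pgls had other probes of opposite sign (-0.36, and -0.61 to -0.27), and both lost their call when any of the spleen or skin arrays was left out. Mthfd2, a mitochondrial folate enzyme, rose 4.66-fold in intestine (2.22 ± 0.14, limma adjusted p = 2.12e-06). Tkt, the transketolase of the pentose phosphate pathway, rose 1.94-fold in skin (0.96 ± 0.15, limma adjusted p = 0.00305). That call was lost without spleen replicate II, where the log2 difference was still 0.834. Its other probe gave only 0.32. Over the 6 lists 12 genes rose and 7 fell in skin against spleen, shares of 16% and 9.33%. This balance turned to 5 higher and 18 lower under median scaling and to 7 and 16 under the deposited scaling alone, and was 18 and 6 with the median of the detected probes. The 19 calls became 5 without spleen replicate I, 4 without spleen replicate II, 9 without skin replicate I and 10 without skin replicate II. Besides Slc40a1 and Prdx4, the peroxidase gene Gpx8 was among them (-1.69 ± 0.29, limma adjusted p = 0.0047, other probe -1.60), detected on 1 of 2 skin arrays.

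Of the NADPH oxidase subunits, whose complex makes superoxide, 1 of 5 rose from spleen to intestine, 2 fell and 2 did not pass (median -0.25). Of all genes 21.0% rose and 28.3% fell. The 2 that fell were Cyba (-0.69 ± 0.13) and Rac2 (-0.53 ± 0.14). Both lost their call with the median of the detected probes (limma adjusted p = 0.2398 and 0.142). Rac2 also lost it without spleen replicate I, where its log2 difference was -0.446.

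**Figure D5:**
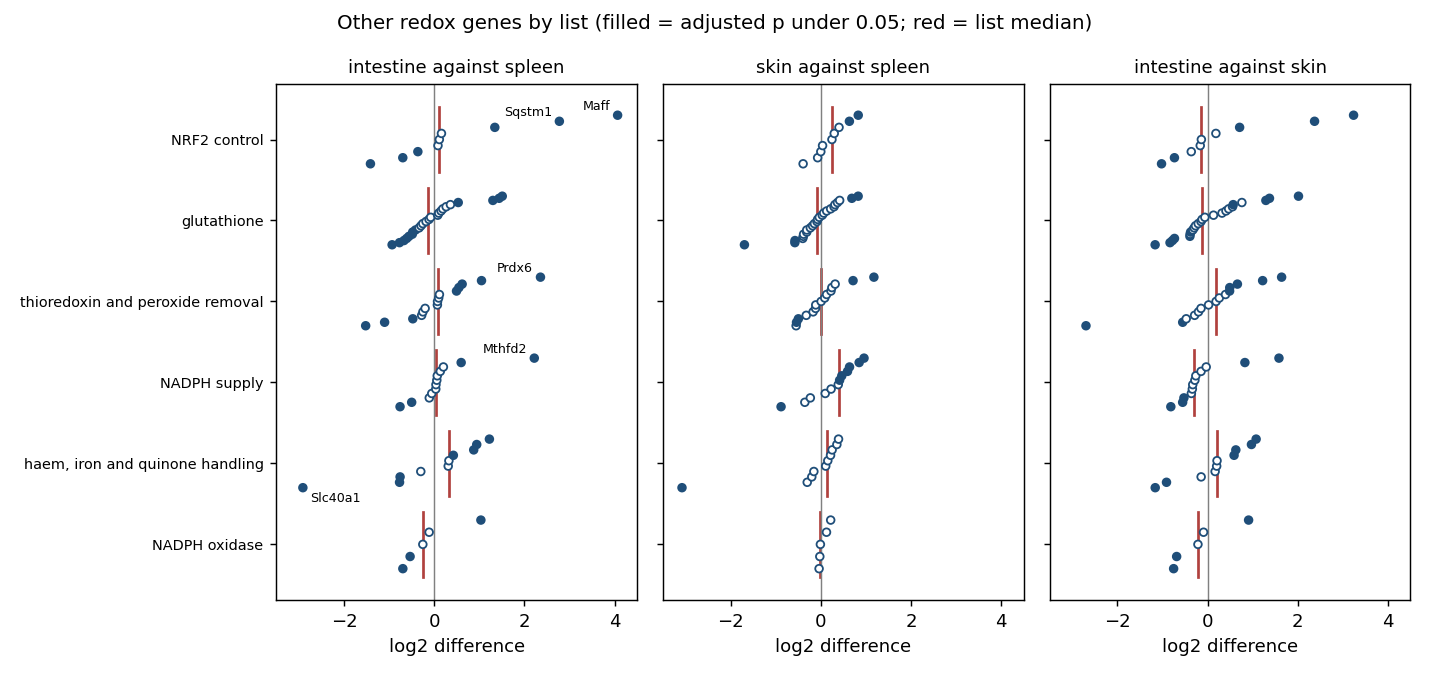
Log2 differences of 75 genes in 6 lists for the 3 comparisons, 1 point per gene, filled where the limma adjusted p was under 0.05, with a red line at the list's median. List medians lie between -0.304 and 0.402, while single genes such as Maff, Sqstm1, Prdx6, Mthfd2 and Slc40a1 lie more than 2 from 0 in intestine against spleen.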

How the data were processed

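Total RNA was isolated with the RNeasy Micro Kit and turned into biotin-labelled cRNA for Illumina bead arrays, per the labels' protocols. BeadStudio 1.5.1.3 is the software listed in the submitters' processing notes. Each table holds an average bead intensity and a detection p-value per probe, per the file headers. The deposited intensity was already background-subtracted and scaled to a common mean, as its values show, and the sources do not say how the deposited detection p-value was computed. Another table holds the deposited intensity without that scaling. Being background-subtracted, the values were not passed through normexp.

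An offset of 16 was added, log2 taken and the arrays quantile normalised with limma 3.58.1 (R 4.3.3). Probes were kept (18583) where some tissue had a detection p under 0.01 on both its arrays, the one with the highest mean stood for its gene, and 13455 genes were fitted with lmFit and eBayes, a mean per tissue, with Benjamini-Hochberg adjustment and a threshold of 0.05. Symbols were updated through the RefSeq table (20147 probes current, 12968 translated), and a bound for an undetected gene uses the lowest detected signal of each array. By the array names, slide 1 held every replicate I and slide 2 every replicate II, which pairs the arrays. Deviations from the tissue means of arrays on a slide correlated over genes at 0.157 (spleen and intestine), 0.21 (spleen and skin) and 0.114 (intestine and skin).

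The members and lists were chosen with earlier results of these data known. Genes named from the lists were the 2 with the highest mean and up to 3 called genes with the largest difference per comparison, of which the text gives part, and 1 of them is not reported here. Mafg and Slc7a11 in intestine, Keap1, the named cell type markers and genes named as undetected are outside that rule and were named after their values were seen. The fit was tested on simulated data. Alternatives covered scaling, offset, filter, probe choice, slide and each array left out.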

Additional observations from a re-analysis of the deposited data

How the results depend on the processing

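Alternatives changed scaling, offset, filter, probe choice and the slide block or left out 1 of 6 arrays, which leaves a tissue with 1 array assumed to vary like the others. The median of the detected probes was chosen as a scale after seeing the data. Member calls went from 2 to 1 with that median in intestine against spleen, and to 3 with median scaling, the deposited scaling alone and the replicate block. With median scaling and the deposited scaling alone, Nfe2l2 lost its call and Hmox1 and Gclm joined Prdx1, so all calls were falls. With the replicate block Nfe2l2 and Prdx1 stayed and Hmox1 was added as a fall. In skin against spleen member calls went from 1 to 2 with each median scaling, with the deposited scaling alone and with the replicate block, and to 0 with probes detected on all 6 arrays, where Hmox1 is not tested. With each array left out they ranged from 0 to 4, from 1 to 2, and from 2 to 3 between intestine and skin. List calls in skin against spleen went from 19 to 12 with offset 8 and 11 with no filter, and ranged from 4 to 24 with an array left out. The other list ranges were 27 to 43 against spleen and 30 to 38 between intestine and skin. The Osgin1 difference from spleen was 5.745 with offset 8, 4.26 with offset 32 and 5.38 with the detected-probe median, 4.87 and 5.23 within slides, and 4.87 to 5.235 with an array left out. From skin it was 5.80, 4.275, 4.92 and 5.25, and 4.90 to 5.27 in the same order without the median.

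Signs turned for 1 difference that had passed, Pgls in skin against spleen (0.42, adjusted p = 0.0423), and otherwise only for differences that had not. Where an array left out turned a sign, the range over the 6 is given. In intestine against spleen these were Txnrd1 (0.15 with the detected-probe median, -0.498 to 0.188 with an array left out), Txnip (0.088 with that median), Prdx5 (-0.072 with median scaling, -0.043 deposited) and Pgls (-0.05, -0.021, and -0.38 with mean probes). In skin against spleen they were Gclm (-0.12 with median scaling, -0.048 deposited, -0.017 to 0.453 with an array left out), Txnrd1 (0.125), Gpx4 (0.16, and -0.093 to 0.025 with an array left out), Gstp1 (0.052) and Prdx5 (0.020) with the detected-probe median, Pgls (-0.19 with mean probes), Cyba (0.099, 0.40 and 0.17 with the 3 scalings, -0.047 to 0.029 with an array left out) and Rac1 (-0.207 to 0.13 with an array left out). Between intestine and skin Txnrd1 gave -0.068, -0.11, -0.005 with offset 8 and -0.327 to 0.359 with an array left out. The cause was not tested. Dim genes near the lowest detected signal are the least precise.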
